A study of Mus musculus with 10 samples.

Results

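Hox genes encode homeodomain transcription factors, and their RNA was compared between 5 kinds of mouse mesenchymal stem cell culture. The members were all genes whose array name is Hox followed by a cluster letter from a to d and a number, each read from its brightest probe. There were 39 of them among 34717 genes named on the array, with 11 in cluster A, 10 in cluster B, 9 in cluster C and 9 in cluster D. The study put total RNA of 10 cultures on 10 single-colour oligonucleotide arrays, in 5 groups of 2 cultures that the labels call independent, to ask whether the stage at which a stem cell loses 2 tumor suppressors shapes the tumor it forms. Bone marrow (BM-MSC) or fat (ASC, adipose-derived stem cells) of FVB mice gave the cells, which were grown in the same stem cell medium. The tumor line is 1 line grown ex vivo from a subcutaneous tumor that primed null BM-MSC formed in immunodeficient NSG mice. Null BM-MSC and null ASC carried, by the growth protocol, Rb and p53 alleles flanked by loxP sites, spent 10 days in osteogenic medium ("primed") and then received Ad-CMV-Cre, an adenovirus that expresses the recombinase Cre. Their source labels name Rb-/-p53-/- mice instead, and the sources used here do not settle which holds. For the wild-type groups, BM-MSC and ASC, neither priming nor virus is stated, so that gene loss, virus, priming and the position of the array on its slide cannot be told apart between null and wild-type cells. The labels call the tumor line and null BM-MSC tumorigenic, and the other 3 groups non-tumorigenic.

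Hox genes lie in 4 clusters, and along each cluster low-numbered (anterior) genes act nearer the head and high-numbered (posterior) genes nearer the tail or the tip of a limb. Fibroblasts and other mesenchymal cells of the adult keep much of the Hox pattern of the body site they came from. Hox proteins bind DNA together with Pbx and Meis cofactors, Polycomb proteins keep clusters silent, trithorax proteins keep them active, and retinoic acid opens the anterior end. Genes of the same number in different clusters are paralogs and share much of their function.

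Each level below is a log2 signal minus the 75th percentile of its array, each change is the difference of 2 group means in log2 with its standard error from limma, and a change passed when its p, adjusted over all 22595 genes tested, was under 0.05. Levels are not compared between genes, because each probe has its own brightness. Between 53.3% and 58.4% of spots were well above background on each array, and none was saturated. The tumor line arrays shared 1 scan date and the other 8 arrays another, so the tumor line and its scan batch cannot be told apart. Rb1 read -1.98 and -1.97 in the tumor line, 0.65 and 0.54 in null BM-MSC, 1.90 and 1.92 in wild-type BM-MSC, -1.91 and -1.97 in null ASC and 1.31 and 1.31 in wild-type ASC, and Trp53 was not well above background in the tumor line and read -0.89 and -1.11 in null BM-MSC, 0.83 and 0.71 in wild-type BM-MSC, -4.49 and -5.12 in null ASC and 1.11 and 1.02 in wild-type ASC. Both targeted genes thus kept more signal in null BM-MSC than in null ASC. How complete the excision was in null BM-MSC, and whether each probe lies in the deleted part, was not tested, so cells are called null here by their labels. The labels tie no culture to a mouse of its own, so p-values measure the spread between these cultures, and both tumor line cultures share 1 tumor. All 12 stem cell markers were well above background in every group, with summed levels of 8.03 to 8.46, in which Col1a1 alone read 6.72 to 7.30. Single markers still differed, with Eng at -2.12 in the tumor line against 3.13 in null BM-MSC, and Nt5e at 1.20 in null BM-MSC against -3.57 in null ASC. Markers of myeloid cells summed to 3.79 to 3.88 in the tumor line, 4.49 to 4.55 in null BM-MSC, 4.85 to 4.86 in wild-type BM-MSC, 4.0 to 4.11 in null ASC and 4.83 to 5.04 in wild-type ASC, with Itgam alone at 2.80 to 4.54. Marker by marker, 5 of 10 tested myeloid genes were higher and 2 lower in the tumor line than in null BM-MSC, where 69.5% of all genes passed. Among these genes were Tyrobp (-1.94) and Lyz2 (-1.73), both dim in null BM-MSC. Of 4 tested lymphoid and erythroid genes, 1 was higher and 1 lower in the tumor line than in null BM-MSC, and 2 did not pass. The erythroid gene Hba-a1 read -0.12 in the tumor line and -4.10 in null BM-MSC. Osteogenic markers summed to 7.02 to 7.09, 6.37 to 6.42 and 4.74 to 4.82 in the first 3 of these groups, and to -0.93 to -0.46 in null ASC and -1.12 to -1.11 in wild-type ASC. The tumor line sum was carried by Spp1 (7.03). Of the 8 osteogenic markers, 6 were lower in the tumor line than in null BM-MSC and 2 (Spp1 and Phex) higher, against 35.0% and 34.6% of all genes. The median change of the 8 was -4.81, and Sp7, Alpl and Bglap were dim in the tumor line. All 8 were higher in BM-MSC than in ASC of either genotype, where 26.0% (null) and 25.7% (wild type) of all genes were higher. In the tumor line, null BM-MSC and wild-type BM-MSC, epithelial markers summed to 1.525 to 1.556, 1.66 to 1.73 and -1.44 to -1.40. In null and wild-type ASC they summed to -0.48 to -0.31 and -0.87 to -0.73. Adipocyte markers summed to 0.75 in the tumor line, 2.54 to 2.57 in null BM-MSC and 3.40 to 3.47 in wild-type BM-MSC. They summed to 0.84 to 0.99 in null and 0.35 to 0.40 in wild-type ASC. The part of other cells or of priming in the Hox values was not tested.

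Promoter sequences are shown for 5 members on which the comparisons below turn and for which RefSeq gives a window. The first 3 (Hoxb4, Hoxb8 and Hoxd10) were far higher in the tumor line than in null BM-MSC, and Hoxa11 and Hoxd11 are posterior members far lower in BM-MSC than in ASC. Each window runs from 250 bases before to 50 bases after the annotated start, 5′ to 3′ on the strand of the gene, in build GRCm38.p6. Capitals mark, on either strand, TGATNNAT (a composite site of Pbx and Hox proteins), TAATTA (a homeodomain core site) and AGGTCA (the core site of retinoic acid receptors). The first 2 of these motifs can share bases, and did not do so in the windows shown. The windows are chr11:96318017-96318316 (plus strand) for Hoxb4, chr11:96281655-96281954 (plus) for Hoxb8, chr2:74691641-74691940 (plus) for Hoxd10, chr6:52245761-52246060 (minus) for Hoxa11 and chr2:74682073-74682372 (plus) for the second of 2 Hoxd11 starts.
Hoxb4: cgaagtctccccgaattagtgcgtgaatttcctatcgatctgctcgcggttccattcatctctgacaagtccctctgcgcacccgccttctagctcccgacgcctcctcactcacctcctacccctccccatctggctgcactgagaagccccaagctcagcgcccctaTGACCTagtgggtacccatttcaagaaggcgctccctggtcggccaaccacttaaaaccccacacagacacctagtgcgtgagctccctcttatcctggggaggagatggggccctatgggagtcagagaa
Hoxb8: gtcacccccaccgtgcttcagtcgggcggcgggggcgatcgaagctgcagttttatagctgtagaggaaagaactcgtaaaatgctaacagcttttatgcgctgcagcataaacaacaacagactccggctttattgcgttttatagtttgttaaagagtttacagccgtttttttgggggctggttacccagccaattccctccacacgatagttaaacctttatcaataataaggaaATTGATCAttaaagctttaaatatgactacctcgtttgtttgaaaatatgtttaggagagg
Hoxd10: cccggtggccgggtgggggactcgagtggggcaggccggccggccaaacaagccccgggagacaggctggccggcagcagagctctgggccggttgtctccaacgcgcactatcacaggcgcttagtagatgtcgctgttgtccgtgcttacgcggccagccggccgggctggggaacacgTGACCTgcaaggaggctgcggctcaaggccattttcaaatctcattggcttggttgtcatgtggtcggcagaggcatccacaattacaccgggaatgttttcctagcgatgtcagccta
Hoxa11: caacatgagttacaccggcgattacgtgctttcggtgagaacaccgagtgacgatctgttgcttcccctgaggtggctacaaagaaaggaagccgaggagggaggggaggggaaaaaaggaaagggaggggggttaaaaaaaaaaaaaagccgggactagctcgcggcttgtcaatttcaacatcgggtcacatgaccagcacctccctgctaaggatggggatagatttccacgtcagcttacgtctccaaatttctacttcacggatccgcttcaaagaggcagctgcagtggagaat
Hoxd11: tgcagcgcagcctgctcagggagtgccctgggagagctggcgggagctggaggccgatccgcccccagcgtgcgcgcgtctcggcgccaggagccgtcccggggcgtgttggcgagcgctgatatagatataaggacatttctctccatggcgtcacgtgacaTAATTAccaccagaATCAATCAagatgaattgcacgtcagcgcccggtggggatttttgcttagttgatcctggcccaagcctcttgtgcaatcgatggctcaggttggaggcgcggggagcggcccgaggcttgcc
Hoxb4 and Hoxd10 each hold 1 retinoic acid core site on the opposite strand (TGACCT), Hoxb8 holds 1 Pbx and Hox composite (ATTGATCA), and Hoxd11 holds 1 composite (ATCAATCA) and 1 homeodomain core. No letters of the motifs searched are in the Hoxa11 window. RefSeq gave 24 windows for 22 of the 39 members. AGGTCA was in 7 of the 24 (29.2%), against 16.3% of all 32851 promoters of that length, TGATNNAT in 4 (16.7%) against 8.85%, and TAATTA in 2 (8.33%) against 5.29%. Both windows with TAATTA are starts of Hoxd11, so that share rests on 1 gene. The E2F motif TTTGGCGC was in 0 of 24, against 0.514% of all promoters. These windows held a median of 14.5 CG dinucleotides (4 to 45), against 7 in all promoters.

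More Hox genes were detected in ASC than in BM-MSC, and the tumor line lay between them. On both arrays of a group, 29 of 39 members were well above background in the tumor line, 23 in null BM-MSC, 24 in wild-type BM-MSC, and 33 in each ASC group. Cluster B made most of that gap, with 6 of 10 members detected in the tumor line, 2 in null BM-MSC, 3 in wild-type BM-MSC and 8 in each ASC group. Cluster D gave 5, 3 and 4 of 9 in the same order and 6 in each ASC group. Clusters A (9 to 11 of 11) and C (8 of 9 in every group) were detected nearly alike throughout. Anterior members Hoxb1 and Hoxd1 and posterior members Hoxb13, Hoxd12 and Hoxd13 were well above background on no array and were not tested. Of the 34 that were tested, Hoxa13, Hoxb2, Hoxb9 and Hoxd11 passed the detection filter through the ASC groups alone and Hoxc12 through the tumor line alone. These arrays read RNA in bulk, so fewer cells that express a gene and less RNA per cell cannot be told apart.

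**Figure D1:**
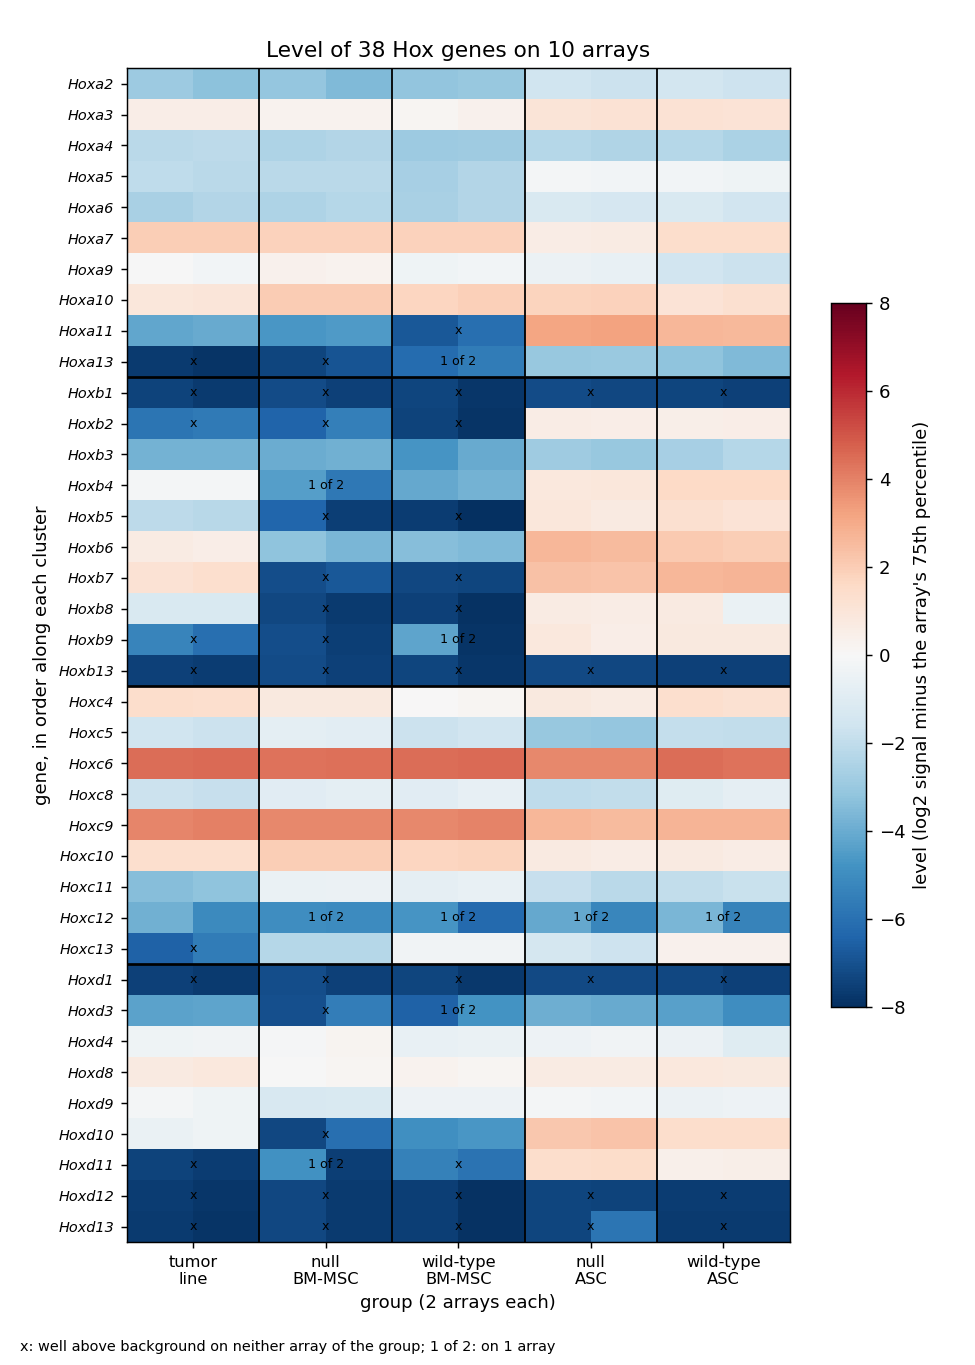
Levels of 38 Hox genes (log2 signal minus the array's 75th percentile, as colour) on the 10 arrays, with genes in order along clusters A to D down the page and groups across it. A cross marks a group with neither array well above background, and a group with 1 such array is marked as 1 of 2. Cluster B is dim in both BM-MSC groups (2 of 10 members detected on both arrays in null BM-MSC, 3 in wild-type BM-MSC), with 6 members detected in the tumor line and 8 in each ASC group.

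Most tested Hox genes differed between the BM-MSC and ASC cultures. In null BM-MSC against null ASC 29 of 34 tested members passed (85.3%), 9 higher and 20 lower, where 55.4% of all genes tested passed (26.0% higher and 29.4% lower). In wild-type BM-MSC against wild-type ASC 27 passed (79.4%), 8 higher and 19 lower, against 54.0% of all genes (25.7% higher and 28.3% lower). The median size of a change was 1.29 (log2) over the members and 0.39 over all genes in null cells, and 1.22 and 0.36 in wild-type cells. At least 4-fold changes passed for 13 members in null and 12 in wild-type cells, against 9.13% and 8.40% of all genes. Since some members could pass the detection filter only where they are high, these counts describe the members tested and not all 39. The 2 comparisons use different cultures and are set side by side gene by gene below.

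The tested Hox genes of cluster B (chromosome 11, probes from 96057854 to 96228510 in mm9, the build of the array) stood lower in BM-MSC. All 8 tested members were lower in BM-MSC than in ASC, whichever the genotype, against 29.4% (null) and 28.3% (wild type) of all genes. Of the 8, Hoxb2 and Hoxb9 passed the detection filter through the ASC groups alone. Their direction is not independent of that filter. Hoxb7, a central member known from thoracic patterning in mice, read 1.15 and 1.37 in the tumor line, -7.10 and -6.77 in null BM-MSC, -7.28 and -7.33 in wild-type BM-MSC, 2.33 and 2.31 in null ASC and 2.68 and 2.73 in wild-type ASC. Both ASC groups and the tumor line were high, and Hoxb7 was dim on all 4 BM-MSC arrays. It was at least 191-fold lower in null BM-MSC than in null ASC (adjusted p = 5.49e-08) and at least 306-fold lower in the wild-type pair (adjusted p = 4.75e-08). These and other "at least" folds set the bright group against the lowest level well above background on each array of the dim group. Where the gene's own level was higher, that level was used. A signal above that lowest level can still be dim, so these folds are not strict limits.

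Hoxb5, which in mice shapes the shoulder and lower neck, read -2.09 and -2.19 in the tumor line, -6.37 and -7.54 in null BM-MSC, -7.61 and -8.02 in wild-type BM-MSC, 0.91 and 0.72 in null ASC and 1.26 and 1.07 in wild-type ASC. Its 4 BM-MSC arrays were dim, 2 tumor line arrays stood above them, and 4 ASC arrays stood above those. The bounds were at least 67.5-fold lower in null and at least 105-fold lower in wild-type BM-MSC than in ASC. Hoxb8, a central member, read -1.24 and -1.24 in the tumor line, -7.28 and -7.63 in null BM-MSC, -7.47 and -7.90 in wild-type BM-MSC, 0.66 and 0.62 in null ASC and 0.70 and -0.56 in wild-type ASC. Its wild-type ASC arrays lay further apart than any other ASC pair of the cluster, and both were still above every BM-MSC and tumor line array. It was at least 59.8-fold lower in null BM-MSC, and at least 49.2-fold lower in the wild-type pair, where the fitted change ran from -8.39 to -7.13 without single wild-type ASC arrays.

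Hoxb2 and Hoxb9, near the 2 ends of the detected stretch, were high in ASC alone. Hoxb2, a regulator of hindbrain identity, read -5.86 and -5.65 in the tumor line, -6.43 and -5.45 in null BM-MSC, -7.43 and -7.87 in wild-type BM-MSC, 0.58 and 0.53 in null ASC and 0.49 and 0.55 in wild-type ASC. It was well above background on the 4 ASC arrays only, and at least 55.6-fold (null) and at least 67.1-fold (wild type) lower in BM-MSC. Hoxb9, which patterns the rib cage in mice, read -5.30 and -6.05 in the tumor line, -7.09 and -7.56 in null BM-MSC, -4.24 and -7.84 in wild-type BM-MSC, 0.82 and 0.50 in null ASC and 0.77 and 0.78 in wild-type ASC. Of the wild-type BM-MSC arrays 1 was well above background and the other was not, so that the wild-type change of -6.82 ± 1.05 depends on how dim signals are read and ran from -8.62 to -5.02 without single wild-type BM-MSC arrays. In null cells Hoxb9 was at least 60.6-fold lower in BM-MSC.

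Hoxb4 and Hoxb6 kept some signal in BM-MSC. Hoxb4, known for expanding blood stem cells when overproduced, read -0.14 and -0.14 in the tumor line, -4.39 and -5.70 in null BM-MSC, -4.08 and -3.76 in wild-type BM-MSC, 0.82 and 0.90 in null ASC and 1.57 and 1.57 in wild-type ASC. The 3 levels of signal did not overlap, with ASC highest, the tumor line next and BM-MSC lowest. The change was -5.90 ± 0.38 in null cells, where 1 of 2 BM-MSC arrays was dim (-6.56 to -5.24 without single null BM-MSC arrays), and -5.48 ± 0.38 in wild-type cells. Hoxb6, a central member, was measured in every group and fell by 6.04 ± 0.13 in the null pair and by 5.49 ± 0.13 in the wild-type pair (adjusted p = 2.69e-07 and 4.27e-07). Hoxb3 fell less, by 0.95 ± 0.23 and 1.88 ± 0.23, and the null call is lost when either of 2 arrays is left out (adjusted p up to 0.062). A second Hoxb3 probe was dim in both BM-MSC groups and read -1.31 in null and -0.98 in wild-type ASC, so the 2 probes differ in size and not in direction.

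Posterior members Hoxa11 of cluster A and Hoxd10 and Hoxd11 of cluster D parted the tissues as sharply, and Hoxa13 less so. Of these, Hoxd11 and Hoxa13 passed the detection filter through the ASC groups alone. The last members of cluster D, Hoxd12 and Hoxd13, were well above background on no array. Hoxa11, needed in mice for the forearm and the uterus, has its probe on chromosome 6 at 52192107 to 52192166 (mm9) and read -4.15 and -4.04 in the tumor line, -4.68 and -4.53 in null BM-MSC, -6.77 and -6.04 in wild-type BM-MSC, 3.14 and 3.23 in null ASC and 2.63 and 2.60 in wild-type ASC. All 4 ASC arrays were high, the tumor line and null BM-MSC were low but detected, and wild-type BM-MSC were dim. The change was -7.79 ± 0.22 (log2 ± SE, adjusted p = 6.92e-07) in null cells, and in wild-type cells Hoxa11 was at least 288-fold lower in BM-MSC. Hoxd11, its paralog in forming the forearm, has its probe on chromosome 2 at 74522136 to 74522195 and read -7.42 and -7.62 in the tumor line, -4.82 and -7.53 in null BM-MSC, -5.41 and -5.94 in wild-type BM-MSC, 1.40 and 1.46 in null ASC and 0.39 and 0.48 in wild-type ASC. It was well above background on every ASC array and on 1 of the other 6, in null BM-MSC. Wild-type BM-MSC were at least 63.3-fold lower than ASC, and the null change of -7.60 ± 0.78 ran from -8.96 to -6.25 when single arrays were left out. A second Hoxd11 probe was dim in the tumor line and in both BM-MSC groups and read 2.10 in null and 1.08 in wild-type ASC.

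Hoxd10, active in the lumbar spinal cord and hindlimb, read -0.54 and -0.36 in the tumor line, -7.25 and -6.04 in null BM-MSC, -4.92 and -4.67 in wild-type BM-MSC, 2.16 and 2.26 in null ASC and 1.40 and 1.40 in wild-type ASC. Null BM-MSC were dim, wild-type BM-MSC low, the tumor line higher and ASC highest, with no overlap between these. It was at least 177-fold lower in null BM-MSC than in null ASC (adjusted p = 2.98e-06), and the wild-type change was -6.19 ± 0.36 (log2 ± SE, adjusted p = 1.59e-05). As fitted, the null change of Hoxd10 ran from -9.46 to -8.25 without single null BM-MSC arrays. Hoxa13, active at the tip of limbs and in the urogenital tract, read -7.67 and -7.83 in the tumor line, -7.36 and -6.91 in null BM-MSC, -6.19 and -5.57 in wild-type BM-MSC, -3.06 and -2.99 in null ASC and -3.21 and -3.53 in wild-type ASC. The 4 ASC arrays were low but detected, and 1 of the other 6 was detected, in wild-type BM-MSC. The bound in null cells was at least 4.71-fold lower in BM-MSC, and the wild-type change was -2.51 ± 0.24 with 1 dim array. Its second probe was dim in every group.

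In cluster A (chromosome 6) the direction changed from gene to gene. Hoxa5, a regulator of the lower neck and of lung development, read -2.06 and -2.17 in the tumor line, -2.18 and -2.13 in null BM-MSC, -2.65 and -2.37 in wild-type BM-MSC, -0.13 and -0.22 in null ASC and -0.22 and -0.34 in wild-type ASC. It was lower on all 6 BM-MSC and tumor line arrays than on any ASC array, and lower in BM-MSC than in ASC by 1.98 ± 0.10 in null and 2.22 ± 0.10 in wild-type cells.

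Hoxa9, a gene of blood progenitors and of the posterior trunk, read -0.06 and -0.21 in the tumor line, 0.32 and 0.30 in null BM-MSC, -0.36 and -0.20 in wild-type BM-MSC, -0.50 and -0.60 in null ASC and -1.51 and -1.73 in wild-type ASC. Wild-type ASC were lowest and null BM-MSC highest, and BM-MSC exceeded ASC by 0.87 ± 0.10 in null and 1.34 ± 0.10 in wild-type cells. Hoxa7 was also higher in BM-MSC, by 1.26 ± 0.05 and 0.43 ± 0.05. Hoxa2, Hoxa3 and Hoxa6 were lower in both pairs, by 1.66, 0.82 and 1.08 in null cells and by 1.55, 0.87 and 1.09 in wild-type cells. Hoxa4 and Hoxa10 differed by -0.08 ± 0.10 and 0.22 ± 0.09 in null cells, where neither passed, and changed by -0.48 ± 0.10 and 0.59 ± 0.09 in wild-type cells.

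In cluster C (chromosome 15, 102759058 to 102867272) most changes that passed ran toward BM-MSC. Of 9 members, 6 were higher in null BM-MSC than in null ASC and 1 lower, and in wild-type cells 4 were higher and 1 lower. Over all genes 26.0% and 25.7% were higher, and 29.4% and 28.3% lower. The median change of the 9 was 1.17 in null and 0.09 in wild-type cells, where 4 did not pass. Hoxc9, a gene of the thoracic to lumbar trunk, read 3.93 and 4.04 in the tumor line, 3.83 and 3.82 in null BM-MSC, 3.87 and 3.96 in wild-type BM-MSC, 2.65 and 2.53 in null ASC and 2.73 and 2.73 in wild-type ASC. All BM-MSC and tumor line arrays lay above all ASC arrays, by 1.23 ± 0.06 in null and 1.18 ± 0.06 in wild-type cells. Hoxc10, a lumbar and hindlimb gene, read 1.37 and 1.34 in the tumor line, 1.97 and 1.97 in null BM-MSC, 1.75 and 1.77 in wild-type BM-MSC, 0.74 and 0.61 in null ASC and 0.69 and 0.59 in wild-type ASC. BM-MSC were highest and ASC lowest, with changes of 1.29 ± 0.06 and 1.12 ± 0.06.

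Hoxc11, a hindlimb gene and paralog of Hoxa11 and Hoxd11, read -3.39 and -3.24 in the tumor line, -0.52 and -0.49 in null BM-MSC, -0.69 and -0.59 in wild-type BM-MSC, -1.84 and -2.17 in null ASC and -1.97 and -1.81 in wild-type ASC. It was highest in BM-MSC, lower in ASC and lowest in the tumor line, and BM-MSC exceeded ASC by 1.5 ± 0.12 and 1.25 ± 0.12. The group 11 paralogs thus pointed in opposite directions between tissues, with Hoxa11 and Hoxd11 lower and Hoxc11 higher in BM-MSC of both genotypes. Hoxc5, a gene of the neck region, read -1.61 and -1.73 in the tumor line, -0.81 and -0.85 in null BM-MSC, -1.70 and -1.54 in wild-type BM-MSC, -3.02 and -3.12 in null ASC and -1.88 and -1.94 in wild-type ASC. Null ASC were lowest and null BM-MSC highest, and the change was 2.24 ± 0.08 in null and 0.29 ± 0.08 in wild-type cells. The wild-type call is lost when either of 2 arrays is left out (adjusted p up to 0.0895). Hoxc6 and Hoxc8 were higher in null BM-MSC than in null ASC, by 0.56 and 1.17, and read 0.09 and 0.08 in wild-type cells, where neither passed. Hoxc4 was the member lower in wild-type BM-MSC, by 1.20 ± 0.08. Hoxc13 was the member lower in null BM-MSC, by 0.77 ± 0.24 (adjusted p = 0.0335), a call lost when any of 8 of the 10 arrays is left out.

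**Figure D2:**
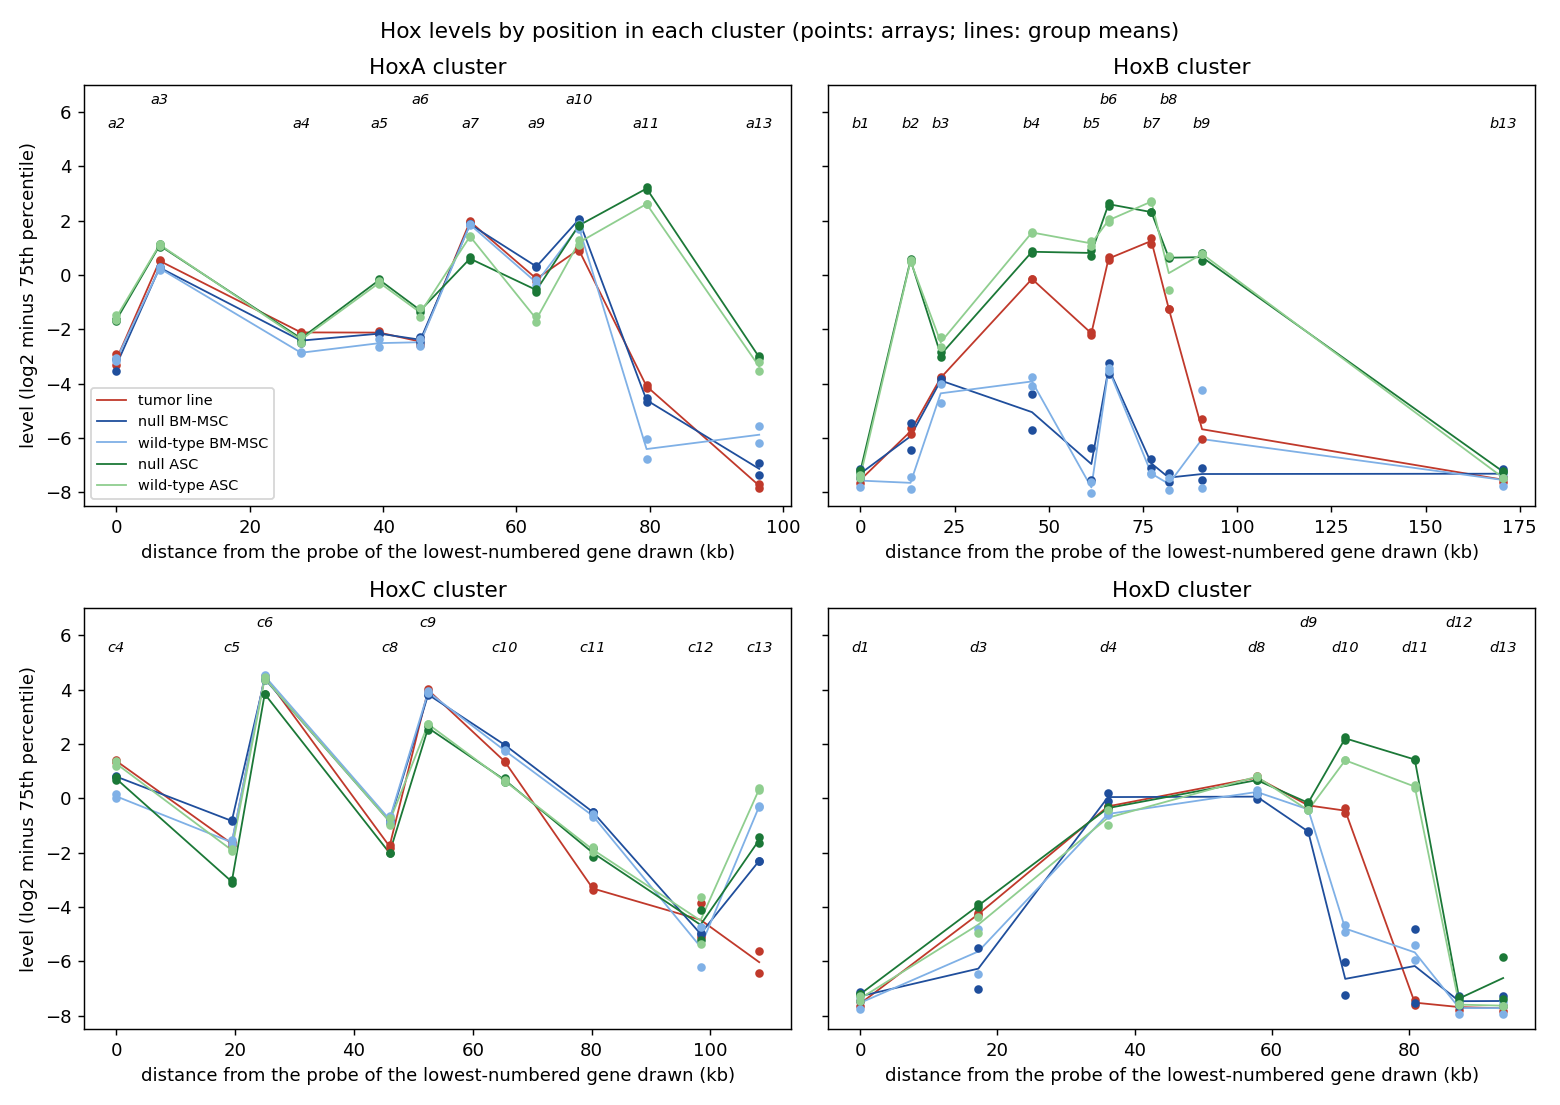
Level (log2 signal minus the array's 75th percentile) of 38 Hox genes against the distance of its probe along its cluster in kb, one panel per cluster, with points for arrays and lines for group means. Cluster B lies lower in BM-MSC than in ASC at all 8 tested members, while in cluster C the groups spread most at Hoxc11 and Hoxc13.

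Cluster D (chromosome 2, 74509248 to 74603059) beside Hoxd10 and Hoxd11 changed less. In null BM-MSC 5 of 6 tested members were lower than in null ASC, and in wild-type BM-MSC 3 of 6 were lower. Over all genes 29.4% and 28.3% were lower. Hoxd9, a posterior trunk and limb gene, read -0.18 and -0.34 in the tumor line, -1.25 and -1.19 in null BM-MSC, -0.43 and -0.38 in wild-type BM-MSC, -0.13 and -0.20 in null ASC and -0.45 and -0.43 in wild-type ASC. Null BM-MSC stood below every other array, by 1.06 ± 0.07 against null ASC, while the wild-type tissues differed by 0.03, which did not pass. Hoxd3, an anterior member, read -4.29 and -4.24 in the tumor line, -7.02 and -5.52 in null BM-MSC, -6.47 and -4.81 in wild-type BM-MSC, -3.89 and -4.01 in null ASC and -4.36 and -4.94 in wild-type ASC. Its null BM-MSC arrays were dim and wide apart, and the bound of at least 2.49-fold lower than null ASC is lost when any of 3 arrays is left out (adjusted p up to 0.108). Hoxd8 was lower in BM-MSC of both genotypes, by 0.61 in null and 0.56 in wild-type cells. Hoxd4, which patterns the upper neck, read -0.32 and -0.27 in the tumor line, -0.10 and 0.19 in null BM-MSC, -0.62 and -0.53 in wild-type BM-MSC, -0.40 and -0.31 in null ASC and -0.44 and -0.99 in wild-type ASC, and it passed in neither tissue comparison.

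The tumor line stood above BM-MSC along a stretch of cluster B. Against null BM-MSC 20 of 34 members passed (58.8%), 13 higher and 7 lower, and against wild-type BM-MSC 19 passed (55.9%), 13 higher and 6 lower. Over all genes tested 69.5% (34.6% higher and 35.0% lower) and 67.8% (33.0% and 34.8%) passed, so the share of members that changed was no larger than the background. At 4-fold or more 9 members passed in each comparison, against 11.1% and 10.9% of all genes. The median size of a change was 0.62 and 0.80 over the members, against 0.61 and 0.59 over all genes. Both comparisons share the tumor line arrays. The line comes from 1 tumor, and its 2 arrays are 2 cultures of it.

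In cluster B, 5 of 8 members were higher in the tumor line than in null BM-MSC and none lower, and 6 were higher against wild-type BM-MSC. Over all genes 34.6% and 33.0% were higher. Hoxb7 was at least 91.7-fold higher than in null and at least 112-fold higher than in wild-type BM-MSC (adjusted p = 4.72e-08 and 4.6e-08). Hoxb8 was at least 16.2-fold higher than in null and at least 19.9-fold higher than in wild-type BM-MSC. For Hoxb5 the bounds were at least 8.69-fold over null and at least 10.6-fold over wild-type BM-MSC. Hoxb6 read 0.67 and 0.54 in the tumor line, -3.23 and -3.63 in null BM-MSC and -3.42 and -3.52 in wild-type BM-MSC. Both tumor line arrays lay above every BM-MSC array, and Hoxb6 rose by 4.04 ± 0.13 over null and 4.08 ± 0.13 over wild-type BM-MSC. Hoxb4 rose by 4.90 ± 0.38 (adjusted p = 4.04e-05) over null BM-MSC, with 1 dim array (4.24 to 5.56 without single null BM-MSC arrays), and by 3.77 ± 0.38 over wild-type BM-MSC.

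The 5 members from Hoxb4 to Hoxb8 were therefore detected in the tumor line, at levels below those of every ASC array for the same gene. Beside that stretch, Hoxb2 and Hoxb9 were dim on both tumor line arrays. Hoxb2 passed against wild-type BM-MSC, with both groups dim, so that call has no measured size. Hoxb3 read -3.80 and -3.76 in the tumor line, a difference of 0.10 ± 0.23 from null BM-MSC that did not pass, while its second probe read -3.82 there on 2 detected arrays and was dim in BM-MSC, so Hoxb3 stood with Hoxb4 to Hoxb8 on that probe and not on the brighter one.

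Outside cluster B the tumor line stood higher at Hoxd10 and lower at the posterior end of cluster C. Hoxd10 was at least 28-fold higher than in null BM-MSC (adjusted p = 9.39e-06; as fitted 5.59 to 6.80 without single null BM-MSC arrays) and changed by 4.34 ± 0.36 (log2 ± SE, adjusted p = 5.17e-05) over wild-type BM-MSC. Its neighbor Hoxd11 was dim in the tumor line. Hoxd9 and Hoxd8 were higher than in null BM-MSC, by 0.96 ± 0.07 and 0.70 ± 0.08, and Hoxd8 also passed against wild-type BM-MSC (0.53 ± 0.08). Hoxd3 was at least 2-fold higher than in null BM-MSC (adjusted p = 0.0304), a call lost when any of 3 arrays is left out, with adjusted p up to 0.153.

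Hoxc13, a hair and nail gene, has its probe at 102759058 to 102759117 on chromosome 15 (mm9) and read -6.44 and -5.62 in the tumor line, -2.30 and -2.30 in null BM-MSC, -0.31 and -0.28 in wild-type BM-MSC, -1.42 and -1.65 in null ASC and 0.31 and 0.37 in wild-type ASC. It was dim in the tumor line and detected in every other group, at least 9.07-fold lower than in null and at least 36.4-fold lower than in wild-type BM-MSC. Hoxc11 fell by 2.81 ± 0.12 against null BM-MSC (adjusted p = 2.62e-06) and by 2.67 ± 0.12 against wild-type BM-MSC. Hoxc5, Hoxc8 and Hoxc10 were also lower than in null BM-MSC, by 0.84, 0.92 and 0.61. At the anterior end of the cluster Hoxc4 was higher, by 0.57 ± 0.08 and 1.30 ± 0.08. For Hoxc6 and Hoxc9 the differences from null BM-MSC were 0.10 and 0.17, and neither passed.

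In cluster A the tumor line was lower at some members and higher at others. Hoxa10, a gene of limb and uterus, fell by 1.10 ± 0.09 against null and by 0.85 ± 0.09 against wild-type BM-MSC. Hoxa9 fell by 0.45 ± 0.10 against null BM-MSC. Hoxa3 and Hoxa4 were higher than in null BM-MSC by 0.25 and 0.30, and both calls are lost without single arrays. For Hoxa11, high in ASC, the difference from null BM-MSC was 0.51 ± 0.22 (log2 ± SE, adjusted p = 0.0758) and did not pass. It was at least 2.75-fold higher than in wild-type BM-MSC, where it was dim.

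**Figure D3:**
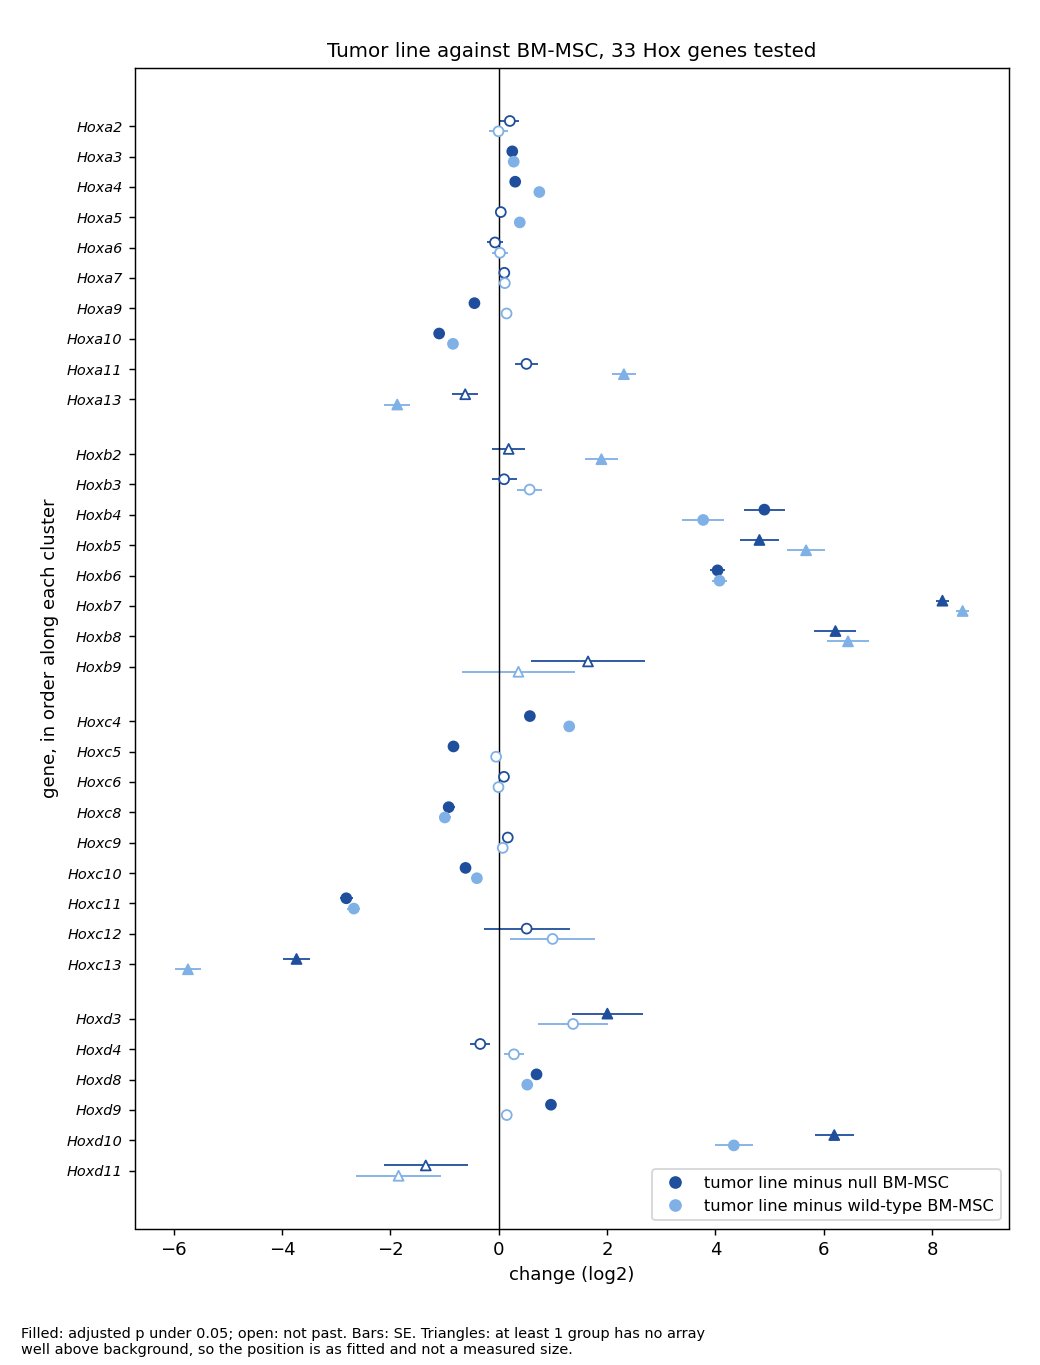
Change (log2 ± SE) of 33 tested Hox genes in the tumor line against null BM-MSC and against wild-type BM-MSC, with genes in order along each cluster. Filled symbols passed at an adjusted p under 0.05, and triangles have a group with no array well above background. Hoxb4 to Hoxb8 and Hoxd10 lie far to the right, and Hoxc11 and Hoxc13 to the left.

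Null cells differed from wild-type cells at fewer Hox genes, and in shares close to the background. In BM-MSC 15 of 34 members passed (44.1%, against 39.5% of all genes), 10 higher and 5 lower in null cells (19.3% and 20.2% of all genes). In ASC 12 passed (35.3%, against 41.5%), 4 higher and 8 lower (20.3% and 21.2% of all genes). The median size of a change was 0.48 over the members and 0.25 over all genes in BM-MSC, and 0.42 and 0.28 in ASC. At 4-fold or more, Hoxc13 alone passed in BM-MSC (1 of 34 members, against 2.47% of all genes) and 0 members in ASC (against 1.97%).

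Hoxc13 was lower in null cells of both tissues. Hoxc13 changed by -2.00 ± 0.24 in BM-MSC and -1.87 ± 0.24 in ASC (adjusted p = 0.00101 and 0.00115). Hoxc13 levels were thus dim in the tumor line, low in null cells and highest in the wild-type cells of each tissue. Hoxa9 was higher in null cells of both tissues, by 0.59 ± 0.10 in BM-MSC and 1.07 ± 0.10 in ASC (adjusted p = 0.00428 and 0.000302).

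In BM-MSC the other measured changes were small. Hoxc4 and Hoxc5 rose by 0.73 ± 0.08 and 0.79 ± 0.08, and Hoxd9 fell by 0.82 ± 0.07. Hoxd10 was dim in null and detected in wild-type BM-MSC, at least 1.38-fold lower (adjusted p = 0.00718), and this call is lost with dim signals set at a floor (adjusted p = 0.0513). Hoxa11 was at least 1.93-fold higher. Calls for Hoxa4, Hoxa5, Hoxc10 and Hoxd4, with changes of 0.45, 0.35, 0.21 and 0.62, are each lost without 3 to 8 of the 10 arrays in turn. Hoxb2 and Hoxb7 passed with both groups dim, and Hoxa13 passed with no bound above 1, so these calls have no measured size.

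In ASC cluster C gave 5 of the 12 calls, with 5 of its 9 members lower in null cells and none higher. Over all genes 21.2% were lower. Beside Hoxc13, Hoxc5 changed by -1.16 ± 0.08 (log2 ± SE, adjusted p = 6.94e-05), Hoxc8 by -1.16 ± 0.11, Hoxc6 by -0.57 ± 0.05 and Hoxc4 by -0.56 ± 0.08. Hoxa7 fell by 0.82 ± 0.05 and Hoxa10 rose by 0.63 ± 0.09. Hoxb6 rose by 0.59 ± 0.13, Hoxd9 by 0.27 ± 0.07, and Hoxb7 fell by 0.39 ± 0.12. These last 3 calls are lost without 2, 3 and 6 of the arrays. For Hoxa11, Hoxd10 and Hoxd11, which parted the tissues, the differences were 0.57 ± 0.22, 0.81 ± 0.36 and 1.00 ± 0.78, and none of these passed.

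The difference of the null effect between tissues passed for 12 of 34 members (35.3%, against 31.8% of all genes). It passed for the targeted genes too, by 1.93 ± 0.07 for Rb1 and 4.10 ± 0.28 for Trp53, both lowered less in null BM-MSC, and the part of this in the Hox values was not tested. Cluster C gave 4 of them, all with a more positive change in BM-MSC. Hoxc5, higher in null BM-MSC and lower in null ASC, differed by 1.95 ± 0.11 (log2 ± SE, adjusted p = 9.04e-05). Hoxc4 likewise changed in opposite directions, with a difference of 1.28 ± 0.12 (log2 ± SE, adjusted p = 0.000476), and Hoxc8 and Hoxc6 differed by 1.09 ± 0.16 and 0.47 ± 0.08. Hoxd9 ran the other way, lower in null BM-MSC and higher in null ASC, with a difference of -1.09 ± 0.09 (log2 ± SE, adjusted p = 0.000417). Hoxa7 differed by 0.83 ± 0.07. Hoxa9 differed by -0.48 ± 0.14, a call lost when any of 9 of the 10 arrays is left out. The other 5, Hoxa11, Hoxa13, Hoxb2, Hoxb7 and Hoxd10, have a dim group, so that the size of the difference is not measured. For Hoxc13 the difference was -0.13 ± 0.34 (log2 ± SE, adjusted p = 0.811), which did not pass.

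**Figure D4:**
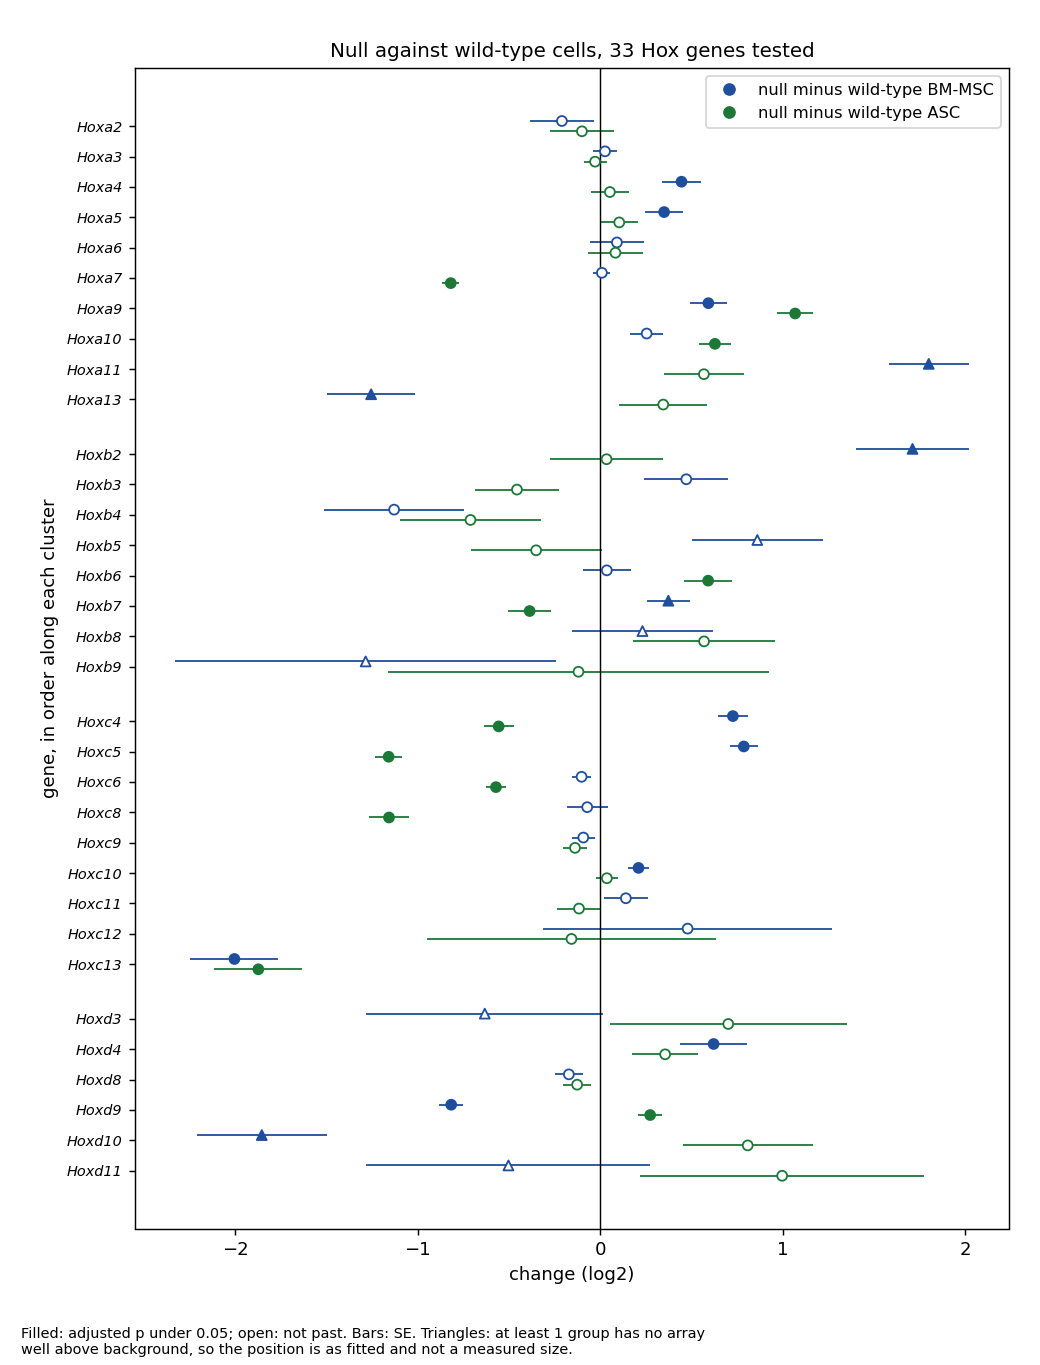
Change (log2 ± SE) of 33 tested Hox genes in null against wild-type cells, in BM-MSC and in ASC, with genes in order along each cluster. Filled symbols passed at an adjusted p under 0.05, and triangles have a group with no array well above background. Hoxc13 lies to the left in both tissues, while Hoxc4, Hoxc5 and Hoxd9 lie on opposite sides.

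Noncoding transcripts inside the clusters were read with 23 probes or genes, of which 17 were tested. In null BM-MSC against null ASC 1 was higher and 8 lower, in the wild-type pair 2 and 10, and in the tumor line 4 were higher and 6 lower than in null BM-MSC. Over all genes 55.4%, 54.0% and 69.5% passed in these comparisons, so the 9 of 17 of the null pair is no more than the background. In the wild-type pair all but 5 of the 17 passed, which is a larger share than the background. The 8 and 10 lower calls of the 2 tissue pairs stand against 29.4% and 28.3% of all genes. The median change of the list was -0.76 in the null pair and -0.24 in the tumor line, against -0.02 and -0.05 over all genes. A probe between Hoxb4 and Hoxb5 (chromosome 11, 96175970 to 96176029, mm9), with no gene name in the files, read -1.03 and -1.38 in the tumor line, -6.62 and -5.90 in null BM-MSC, -5.77 and -6.38 in wild-type BM-MSC, 1.17 and 0.94 in null ASC and 1.10 and 0.39 in wild-type ASC. Like Hoxb5 beside it, it was dim in BM-MSC and detected in the tumor line and in ASC. It was at least 79.6-fold lower in null BM-MSC than in null ASC, and at least 16.6-fold higher in the tumor line than in null BM-MSC. Hoxa11os, the antisense transcript of Hoxa11, changed by -6.51 ± 0.15 in the null pair and -7.09 ± 0.15 in the wild-type pair. Hotair, a transcript of cluster C known for work on Polycomb, was lower in the tumor line by 1.06 ± 0.15 against null BM-MSC and did not pass between tissues. Hottip, the transcript at the posterior end of cluster A, was dim in every group.

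Just outside the clusters, within 200 kb of their ends, 21 genes or transcripts were tested, a set chosen after member values were seen. In null BM-MSC against null ASC 1 was higher and 2 lower, with changes from -0.74 to 0.82 and a median size of 0.14, where 55.4% of all genes passed. In the wild-type pair 1 was higher and 3 lower, with changes from -1.99 to 0.64 and a median size of 0.12, where 54.0% passed. In the tumor line against null BM-MSC 7 were higher and 5 lower, from -1.78 to 0.64, where 69.5% passed. Around cluster B, Atp5g1, a subunit of ATP synthase, differed by -0.04 between null BM-MSC and null ASC and by 0.28 between the tumor line and null BM-MSC, and Ube2z, a ubiquitin-conjugating enzyme, by 0.14 and 0.50. For both genes the tumor line value passed and this tissue value did not, but Atp5g1 passed in the wild-type pair (0.22).

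Of 9 tested Pbx, Meis and Pknox genes, the cofactors of Hox proteins, 2 were higher and 5 lower in null BM-MSC than in null ASC, and 2 and 4 in wild-type cells (55.4% and 54.0% of all genes passed), with median changes of -0.62 and -0.20 against -0.02 and -0.05 over all genes. Pknox2, a partner of Pbx proteins, read -0.36 and -0.36 in the tumor line, -2.79 and -3.06 in null BM-MSC, -2.15 and -2.19 in wild-type BM-MSC, 4.11 and 4.16 in null ASC and 4.0 and 3.97 in wild-type ASC. ASC were highest, the tumor line next and BM-MSC lowest, with no overlap. Against ASC it fell by 7.05 ± 0.09 in null BM-MSC and changed by -6.16 ± 0.09 in wild-type BM-MSC, and it rose by 2.56 ± 0.09 in the tumor line over null BM-MSC. Meis2 fell by 2.24 ± 0.05 and 1.92 ± 0.05 against ASC, and Meis3 fell by 2.63 ± 0.06 in the tumor line against null BM-MSC. In the tumor line 2 cofactors were higher and 6 lower than in null BM-MSC (69.5% of all genes passed). Between null and wild-type cells, 3 rose and 3 fell in BM-MSC, and 2 rose and 1 fell in ASC (39.5% and 41.5% of all genes passed), with Pbx3 rising by 1.20 ± 0.07.

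Polycomb and trithorax genes changed in both directions, and their counts are read against the shares of all genes that passed, which were 55.4% (null) and 54.0% (wild type) between tissues, 69.5% in the tumor line against null BM-MSC, and 39.5% (BM-MSC) and 41.5% (ASC) in null against wild-type cells. Among 27 tested Polycomb subunits, 4 were higher and 13 lower in null BM-MSC than in null ASC (5 and 11 in wild-type cells), and in the tumor line 15 were higher and 7 lower than in null BM-MSC. The median changes were -0.20 in the null pair and 0.39 in the tumor line. Cbx2 and Suz12 rose by 1.44 ± 0.06 and 1.28 ± 0.08 in the tumor line, while Ring1 and Bmi1 fell by 1.82 ± 0.26 and 1.58 ± 0.07. In null cells 10 rose and 5 fell in BM-MSC, and 12 rose and 6 fell in ASC. Phf19, a partner of the Polycomb methyltransferase, rose by 1.12 ± 0.11 in BM-MSC and 2.46 ± 0.11 in ASC, and that methyltransferase, Ezh2, by 0.47 ± 0.06 and 0.85 ± 0.06. Of 12 trithorax group and demethylase genes, 3 were higher and 4 lower in null BM-MSC than in null ASC, 4 rose and none fell in null against wild-type BM-MSC, 5 rose and 2 fell in ASC, and 7 rose and 3 fell in the tumor line against null BM-MSC. Kdm6a, a demethylase of the Polycomb mark, was lower in BM-MSC than in ASC, by 1.26 ± 0.09 in the null and 1.04 ± 0.09 in the wild-type pair, and Ash2l rose by 1.11 ± 0.05 in the tumor line.

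Genes of retinoic acid signaling, tested for 8, were higher in BM-MSC than in ASC for 4 and lower for 3 in null cells, and higher for 5 and lower for 1 in wild-type cells, where 55.4% and 54.0% of all genes passed. Cyp26a1, an enzyme that breaks down retinoic acid, was at least 9.79-fold higher in null and at least 6.89-fold higher in wild-type BM-MSC, and dim in the tumor line (at least 12.3-fold lower than in null BM-MSC). Cyp26b1, an enzyme of the same kind, fell by 1.66 ± 0.11 in the tumor line against null BM-MSC. In the tumor line 3 genes of this list were higher and 5 lower than in null BM-MSC, where 69.5% of all genes passed. In null against wild-type cells 3 fell and none rose in BM-MSC, and 2 rose and 2 fell in ASC, where 39.5% and 41.5% passed.

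Among 4 factors that set limb type, only Pitx1, which marks the hindlimb, was detected and tested. It read 4.31 and 4.27 in the tumor line, 4.91 and 4.97 in null BM-MSC, 4.70 and 4.71 in wild-type BM-MSC, -7.31 and -7.45 in null ASC and -7.67 and -7.67 in wild-type ASC. All BM-MSC and tumor line arrays were bright and all ASC arrays dim, with bounds of at least 1086-fold higher in null and at least 1098-fold higher in wild-type BM-MSC. Of 8 genes tied to Hox proteins in mouse limb or skeleton work, 5 were tested, and all 5 passed between tissues in both genotypes. In null BM-MSC 2 were higher and 3 lower, and in wild-type BM-MSC 3 were higher and 2 lower, where 55.4% and 54.0% of all genes passed. Hand2, a factor of the posterior limb bud, was dim in BM-MSC and the tumor line, at least 26.5-fold lower than ASC in null cells and at least 27.2-fold lower in wild-type cells. Fgf10, a limb bud growth factor, fell by 2.76 ± 0.08 and 3.94 ± 0.08 against ASC and rose by 2.09 ± 0.08 in the tumor line over null BM-MSC. Bmp2, a bone growth factor, rose by 5.70 ± 0.34 in null BM-MSC against null ASC. Of 6 Evx, caudal and Gbx genes, which flank or act upstream of the clusters, 2 were tested. Cdx1 was at least 2.36-fold higher in null and at least 2.11-fold higher in wild-type BM-MSC than in ASC, and Evx2 fell by 0.53 ± 0.15 in wild-type BM-MSC against ASC.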

How the data were processed

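Total RNA of 10 cultures was measured on single-colour Agilent arrays, 1 per culture. The deposited scanner files hold each spot's processed signal as intensity, which the authors obtained, per the file headers, from Feature Extraction 10.7.3.1. Probe coordinates are in mm9. The deposited series matrix holds values that read as log2 (column medians 5.04 to 5.06), with a normalization not given in the sources used here, and it served only as an alternative. Its columns correlated with their own arrays at r = 0.989 to 0.993, with a slope of 0.819 to 0.853. The submitters' processing notes name limma, with no role.

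Control and outlier spots were left out, spots of a probe were averaged as log2, and the array's 75th percentile over probes was subtracted. Of 55681 probes, 37 had no usable spot on some array. The brightest probe stood for a gene, 44 probes covered the 39 Hox genes, and 22595 of 34717 genes were tested, those with some group in which both arrays were well above background. All 10 arrays were fitted with limma 3.58.1 in R 4.3.3, without a block, with 5 residual and 1.35 prior degrees of freedom. Two-sided p-values were adjusted (Benjamini-Hochberg) over every gene tested. The median SE of a change was 0.09 (0.13 for the difference of effects). Precision is limited by how few arrays there are. The script was tested on simulated data.

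Replicate numbers do not pair the cultures, since deviations of same-numbered arrays correlated at -0.12 to 0.12. Named in full were up to 5 detected members per cluster with the widest range of group means, members whose calls change where the text turns on them, and up to 4 changed genes of each other list. Groups, contrasts, tests and most alternatives were set down from the labels, but the members and lists were chosen with earlier results of these data known, so list counts are descriptions. The values of 1 Hox gene are not reported here, though it stays in the fit and in the counts. Setting dim signals at a floor, and the genes outside the clusters, were added after the data were seen. Promoters are from RefSeq (GRCm38.p6), and no coordinate was moved between builds.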

Additional observations from a re-analysis of the deposited data

Results flagged for a closer look

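For 12 Hox genes the null effect in BM-MSC minus the null effect in ASC passed the test of that difference (limma, adjusted over all genes). Chromosome clusters are taken in turn, and the value is the difference of the 2 changes in log2.

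In cluster A, Hoxa7 differed by 0.83 (0.01 in BM-MSC and -0.82 in ASC), Hoxa9 by -0.48 (0.59 and 1.07), Hoxa11 by 1.23 and Hoxa13 by -1.60. Hoxa11 and Hoxa13 were dim in a BM-MSC group. The Hoxa9 call is lost when any of 9 of the 10 arrays is left out, and the Hoxa11 call when any of 6 is.

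In cluster B, Hoxb2 differed by 1.68 and Hoxb7 by 0.76, and both were dim in BM-MSC of either genotype, so that neither value is a measured size. Leaving out any of 5 arrays loses the Hoxb2 call, and leaving out 1 array loses that of Hoxb7 (adjusted p = 0.0529).

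In cluster C, Hoxc4 differed by 1.28 (0.73 in BM-MSC and -0.56 in ASC), Hoxc5 by 1.95 (0.79 and -1.16), Hoxc6 by 0.47 (-0.10 and -0.57) and Hoxc8 by 1.09 (-0.07 and -1.16). All 4 kept their call whichever array was left out.

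In cluster D, Hoxd9 differed by -1.09 (-0.82 and 0.27) and Hoxd10 by -2.66 (-1.85 and 0.81). Hoxd10 was dim in null BM-MSC, and its difference ran from -3.27 to -2.05 as single null BM-MSC arrays were left out.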

How the results depend on the processing

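The counts of Hox genes that passed were recomputed with single arrays left out and with 10 other settings. With single arrays left out they ran from 10 to 15 for null against wild-type BM-MSC, 9 to 15 for null against wild-type ASC, 9 to 13 for the difference of these effects, 26 to 29 for null BM-MSC against null ASC, 26 to 28 for wild-type BM-MSC against wild-type ASC, 17 to 22 for the tumor line against null BM-MSC and 18 to 22 for the tumor line against wild-type BM-MSC. With the 10 other settings they ran from 10 to 15, 10 to 18, 8 to 15, 17 to 30, 17 to 29, 14 to 23 and 11 to 21 in that order. With the replicate number as a block they were 14, 12, 13, 30, 27, 19 and 19 in the same order, and the numbers share no stated origin. A filter that asks all 10 arrays to be well above background left 21 Hox genes, of which 17 passed for null BM-MSC against null ASC, 17 for the wild-type pair and 11 for the tumor line against wild-type BM-MSC; the smaller counts follow from fewer genes tested.

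Of 134 changes that passed, 20 lost their call without some array, and these belong to 15 of the 33 members with a change. Over all 20 settings, 9 of the 15 calls for null against wild-type BM-MSC were lost at least once. In each other comparison 2 to 5 calls were. Directions turned in 3 cases, all with a dim group. Hoxb7 in null against wild-type BM-MSC was -0.11 on the series matrix (adjusted p = 0.484), Hoxa13 there was 0.17 with dim signals at a floor (adjusted p = 0.48), and the Hoxa11 difference of effects was -0.19 after normexp background correction (adjusted p = 0.111). The cause was not tested. Another scaling moved the median of all genes by less than 0.05 (log2). After normexp background correction the median change of the members between tissues was -0.54 (null) and -0.67 (wild type). In the main fit it was -0.88 and -0.98. Signal over background limits Hoxb2, Hoxb5, Hoxb7, Hoxb8, Hoxb9, Hoxd10 and Hoxd11 in BM-MSC and Hoxc13 in the tumor line to bounds or to sizes that depend on how dim spots are read.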

Other observations

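Hoxc12 rose above background on both tumor line arrays and on 1 array of each other group, with levels from -6.20 to -3.63 over all arrays, and passed in no comparison. A transcript probe within cluster B with no gene name (chromosome 11, 96114981 to 96115040, mm9) lies between Hoxb13, which was dim in every group, and Hoxb9. Between tissues it went against the tested coding genes of the cluster. Its mean levels were 0.41 in the tumor line, 2.42 (null) and 4.20 (wild type) in BM-MSC, and 0.86 (null) and 1.91 (wild type) in ASC. It fell by 2.02 ± 0.09 (log2 ± SE) in the tumor line against null BM-MSC, by 1.78 ± 0.09 in null against wild-type BM-MSC and by 1.05 ± 0.09 in null against wild-type ASC.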
